A study of Homo sapiens with 6 samples.

Results

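The genes described here are 10 genes of blood coagulation, its inhibition and the dissolution of clots: F2, F5, F7, F9, F10, F11, F12, PROC, PROS1 and PLG. A region of RNA pol II occupancy was counted for a gene when the authors' annotation gave it that gene's symbol. By this rule, 206 of the 271336 regions in the 4 deposited lists belonged to these genes. They were 42 of 46045 RPB1 regions in SHP-1 WT cells, 24 of 41605 RPB1 regions in SHP-1 KO cells, 97 of 102674 phospho-Ser2 RPB1 regions in SHP-1 WT cells and 43 of 81012 phospho-Ser2 RPB1 regions in SHP-1 KO cells. Of the 10 genes, 9 were named in at least 1 list, in which 16428 genes were named in all, and F9 was named in none.

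RPB1, the largest subunit of RNA pol II, and RPB1 phosphorylated on serine 2 of its C-terminal tail were profiled by ChIP-seq in HepG2 cells, an established human hepatoma line. The study asked how the tyrosine phosphatase SHP-1, the product of PTPN6, bears on the placement of RNA pol II. The SHP-1 WT group was labelled as the CRISPR control, and the SHP-1 KO group was the CRISPR knockout, made with guides against exons of the phosphatase domain. The groups are called WT and KO below, and both were left untreated. The study grew single-cell clones after transfection. Whether the WT cells used for ChIP-seq carried a nontargeting guide, and which clone or guide was used, is not given in the sources used here. Each antibody was used in 1 library per group, so that a difference between the groups cannot be told apart from a difference between 2 cultures, clones or libraries, and none of the differences given here has a replicate check.

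Coagulation is a cascade of plasma proteases that circulate as inactive precursors, most of them secreted by hepatocytes. Prothrombin (F2) and factors VII, IX and X (F7, F9 and F10) are vitamin K-dependent precursors of proteases, factor V (F5) is the cofactor of factor X, and factors XI and XII (F11 and F12) belong to the contact pathway. Protein C (PROC) and its cofactor protein S (PROS1) restrain the cascade, and plasminogen (PLG) is the precursor of the protease that dissolves fibrin. RNA pol II gathers near gene starts, and phosphorylation of serine 2 of the RPB1 tail builds up on elongating polymerase and is usually densest toward gene ends.

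RPB1 sat at the promoters of 7 of the 10 genes in both WT and KO cells, namely F2, F5, F7, F10, F11, PROC and PROS1. No region of any list overlapped the promoters of F9, F12 or PLG. A promoter was taken as the 250 bases before a RefSeq start (GRCh38.p14), and of all 34943 such promoters, 42.3% were overlapped by an RPB1 region in WT and 40.2% in KO cells. Members are counted once per gene, by any of their starts, whereas the shares over all are of single promoters. Within 1 kb of any transcript start in the authors' annotation, 9 members had an RPB1 region in WT and 8 in KO cells. That wider count was not taken over all genes. Each of the 7 promoters with an RPB1 region in WT cells also had one in KO cells. Of all promoters with a WT region, 6.54% had none there, and with only 7 promoters the absence of a loss does not differ from that share. Height is given as the fold enrichment over the input DNA of the same cells at the summit of a region, a ratio computed by the authors for each library. At each of the 7 promoters the RPB1 fold enrichment was lower in KO than in WT cells, as it was at 87.2% of the 13808 promoters with a region in both lists. The KO to WT ratio had a median of 0.532 over the 7 promoters and of 0.720 over all. At 5 of the 7 promoters the fold enrichment was at least 1.5 times lower in KO cells, against 39.2% of all promoters with a region in both.

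The promoters of 3 vitamin K-dependent factors, F7, F9 and F10, are printed to set 2 occupied promoters beside the unoccupied one, followed by the promoter of PROC and by the center of the strongest RPB1 region assigned to PROC away from its start. The first 4 are the 100 bases that end just before the RefSeq start (GRCh38.p14), at chr13:113105691-113105790 for F7, chrX:139530639-139530738 for F9, chr13:113122699-113122798 for F10 and chr2:127418327-127418426 for PROC. The last is chr2:127408343-127408442 in hg38. All lie on the forward strand, and capitals mark the motifs found in them.
F7 promoter: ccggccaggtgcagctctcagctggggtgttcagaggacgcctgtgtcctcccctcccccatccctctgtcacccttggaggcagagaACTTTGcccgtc
F9 promoter: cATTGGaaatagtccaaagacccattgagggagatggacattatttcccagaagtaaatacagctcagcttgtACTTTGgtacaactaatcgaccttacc
F10 promoter: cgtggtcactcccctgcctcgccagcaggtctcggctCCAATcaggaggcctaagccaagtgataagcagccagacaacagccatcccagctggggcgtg
PROC promoter: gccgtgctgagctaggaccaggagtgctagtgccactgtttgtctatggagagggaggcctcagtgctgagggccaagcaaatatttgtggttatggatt
PROC distal region: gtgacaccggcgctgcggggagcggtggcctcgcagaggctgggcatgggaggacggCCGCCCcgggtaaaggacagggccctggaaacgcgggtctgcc

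The 250-base promoters were searched on both strands for the TATA box as TATAAA, the CCAAT box as its 5 letters, the GC box as GGGCGG, a core letter string of the liver factor HNF4 as ACTTTG, a C/EBP site as TTGCNNAA, and the HNF1 palindrome. Here too members are counted as genes and the shares are of single promoters. ACTTTG was found in F7 and F9 and in 10.3% of all promoters. CCAAT was found in F9, F10, F12 and PROC and in 32.0% of all promoters. GGGCGG was found in F10 and PROS1 and in 42.5% of all, TTGCNNAA in PROC and in 9.06% of all, and TATAAA in none of the 10 genes and in 10.8% of all. The HNF1 palindrome was in none of the 10 genes and in 0.0286% of all promoters. Both the occupied promoters of F7 and F10 and the unoccupied promoter of F9 thus held a match, and the 100 bases shown for PROC held none, since its CCAAT lay just beyond them, from -106 to -102 counted back from -1 before the start. The distal region of PROC held GGGCGG on the reverse strand. A match is a description of these letters and not evidence that a factor was bound.

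**Figure D1:**
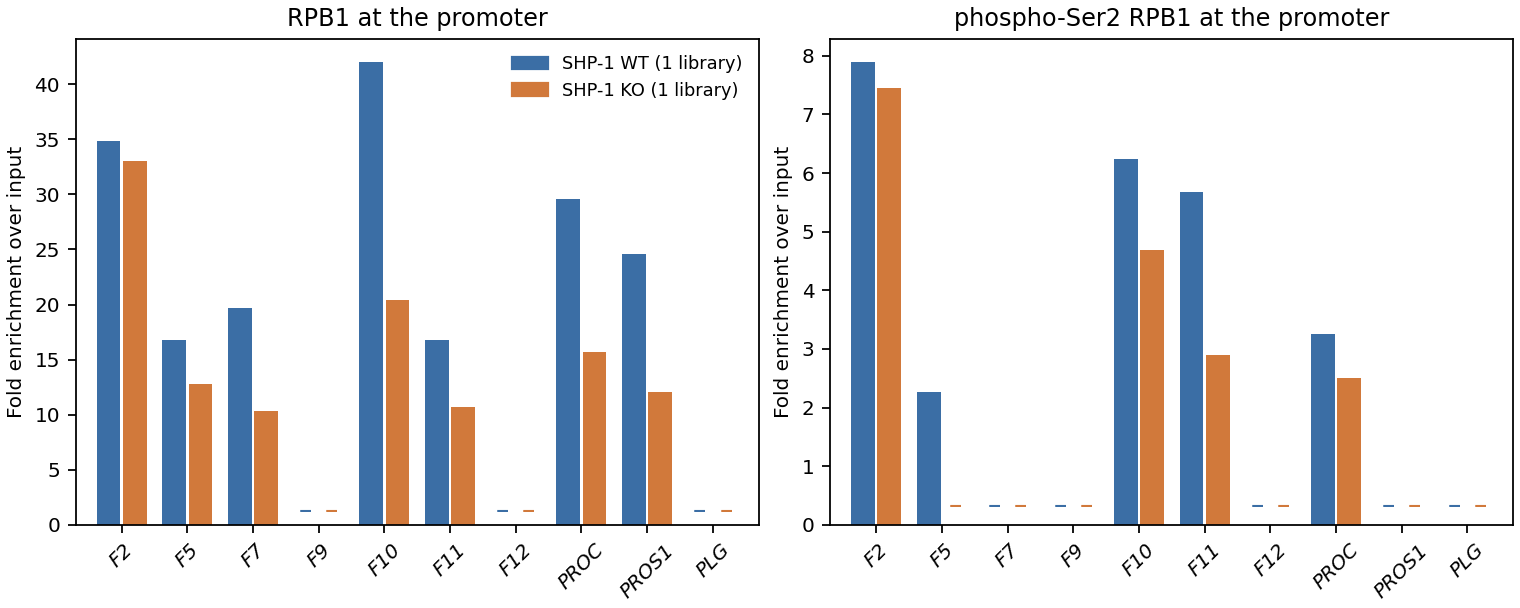
Fold enrichment over input (y axis, linear, from 0) of the strongest region that overlaps the 250 bases before the RefSeq start of each gene (x axis), for RPB1 (left) and phospho-Ser2 RPB1 (right), with 1 bar per library in blue for WT and orange for KO and a dash where no region overlaps. RPB1 reaches 42.0 at F10 in WT and 20.4 in KO cells, while the bars of F2 stand at 34.8 and 33.0.

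F2 encodes prothrombin, the precursor of thrombin, and had the largest covered part of the 10 genes for both antibodies. It lies at chr11:46719213-46739506 on the forward strand (hg38, GENCODE release 44, 20294 bp). One RPB1 region of 13274 bp in WT (chr11:46717541-46730814) and of 13072 bp in KO cells ran from before the promoter far into the gene, with its summit in exon 1, 79 bp and 73 bp past the start. Its fold enrichment was 34.8 in WT and 33.0 in KO cells. Its KO to WT ratio, 0.948, was the highest among the 7 promoters. Regions of any assignment covered 96.5% of the F2 gene in WT and 94.8% in KO cells for RPB1, and 97.4% and 92.5% for phospho-Ser2 RPB1. Both antibodies therefore found polymerase over nearly the whole gene in both groups. The strongest phospho-Ser2 region assigned to F2 had a fold enrichment of 14.0 in WT and 13.2 in KO cells, which placed F2 at rank 667 of 12740 and 672 of 11433 genes. In WT cells it was 1 region of 14700 bp, and in KO cells the same stretch was split among several regions, so that F2 was the gene with more phospho-Ser2 regions in KO (8) than in WT cells (5) by the largest margin of the 10. At the promoter, phospho-Ser2 fold enrichment was 7.89 in WT and 7.45 in KO cells. A still stronger phospho-Ser2 region overlapped the end of F2, with a fold enrichment of 22.2 in WT and 21.5 in KO cells, but its summit lay 6610 bp and 5790 bp past that end, inside the convergent gene CKAP5, to which the authors assigned it.

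F7 encodes factor VII, which starts coagulation together with tissue factor, and F10 encodes factor X, the protease on which both arms of the cascade meet. They are neighbours on the forward strand of chromosome 13, F7 at chr13:113105791-113120685 and F10 at chr13:113122799-113149529, and the authors assigned regions at the end of F7 to F10. At the F7 promoter the RPB1 fold enrichment was 19.7 in WT and 10.3 in KO cells, a ratio of 0.523. The next region, with its summit in intron 2, had 14.0 in WT and 10.6 in KO cells. At both regions that followed, the KO value was slightly higher. The region in intron 2 from 113111805 to 113114313 had a fold enrichment of 13.5 in WT cells, and its counterpart in KO cells had 14.2. The one after it, with its summit in intron 4, had 10.0 in WT and 12.1 in KO cells. At the end of the gene, in a region the authors assigned to F10, it was 19.2 in WT and 14.6 in KO cells. RPB1 regions covered 76.7% of F7 in WT and 76.0% in KO cells.

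Phospho-Ser2 RPB1 stood higher inside F7 in KO than in WT cells. The strongest region assigned to F7 had a fold enrichment of 5.84 in WT and 12.1 in KO cells, a ratio of 2.07, and F7 was the 1 member of 6 in both phospho-Ser2 lists that was at least 1.5 times higher in KO cells, where 5.71% of 10870 genes were. These were different regions, and the same place can be compared directly. A region of 4617 bp in WT (chr13:113112961-113117577) and of 4697 bp in KO cells (chr13:113112925-113117621), with its summit in intron 2, had a fold enrichment of 3.65 in WT and 12.1 in KO cells. The −log10 of its q-value against input was 9.10 in WT and 44.1 in KO cells. Its rank was 53468 of the 102674 regions in WT and 975 of 81012 in KO cells. The 2 regions had nearly the same borders, so the difference was in fold enrichment over input and not in extent. Fold enrichment and q-value did not rank regions alike, since a WT region of 4.32 in intron 2 had a −log10 q-value of 5.67. The other overlapping regions in intron 2 differed less, with 3.30, 5.84 and 4.32 in WT and 4.92, 7.05 and 5.14 in KO cells. Phospho-Ser2 regions covered 56.6% of F7 in WT and 58.5% in KO cells. At the end of F7, the strongest phospho-Ser2 region had its summit in exon 8, at -291 bp from the end of the gene in WT and -301 bp in KO cells, and there the fold enrichment was 12.96 and 12.25. No phospho-Ser2 region overlapped the F7 promoter in either group.

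F10 had the highest RPB1 promoter of the group in WT cells and the lowest KO to WT ratio. The region at its start (chr13:113122118-113124593 in WT) had a fold enrichment of 42.0 in WT and 20.4 in KO cells, a ratio of 0.485. It spanned 2476 bp in WT cells, against 1165 bp in KO cells. Phospho-Ser2 fold enrichment at the same promoter was 6.23 in WT and 4.69 in KO cells. Unlike F7, F10 was also less covered along its body. RPB1 regions covered 31.5% of the gene in WT and 16.1% in KO cells, and phospho-Ser2 regions 46.2% and 19.4%. In the middle of the gene, WT cells had a run of short phospho-Ser2 regions from intron 2 to intron 7, which KO cells mostly lacked. Of the 19 phospho-Ser2 regions assigned to F10 in WT cells, 5 were overlapped in KO cells, where 52.2% of all WT phospho-Ser2 regions were. The strongest phospho-Ser2 region on F10 itself, which the authors assigned to the antisense gene F10-AS1, had a fold enrichment of 10.9 in WT and 6.79 in KO cells. At the end of F10, a region assigned to the neighbouring gene PROZ had a phospho-Ser2 fold enrichment of 8.04 in WT cells, and a shorter one just past the end had 3.98 in KO cells.

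**Figure D2:**
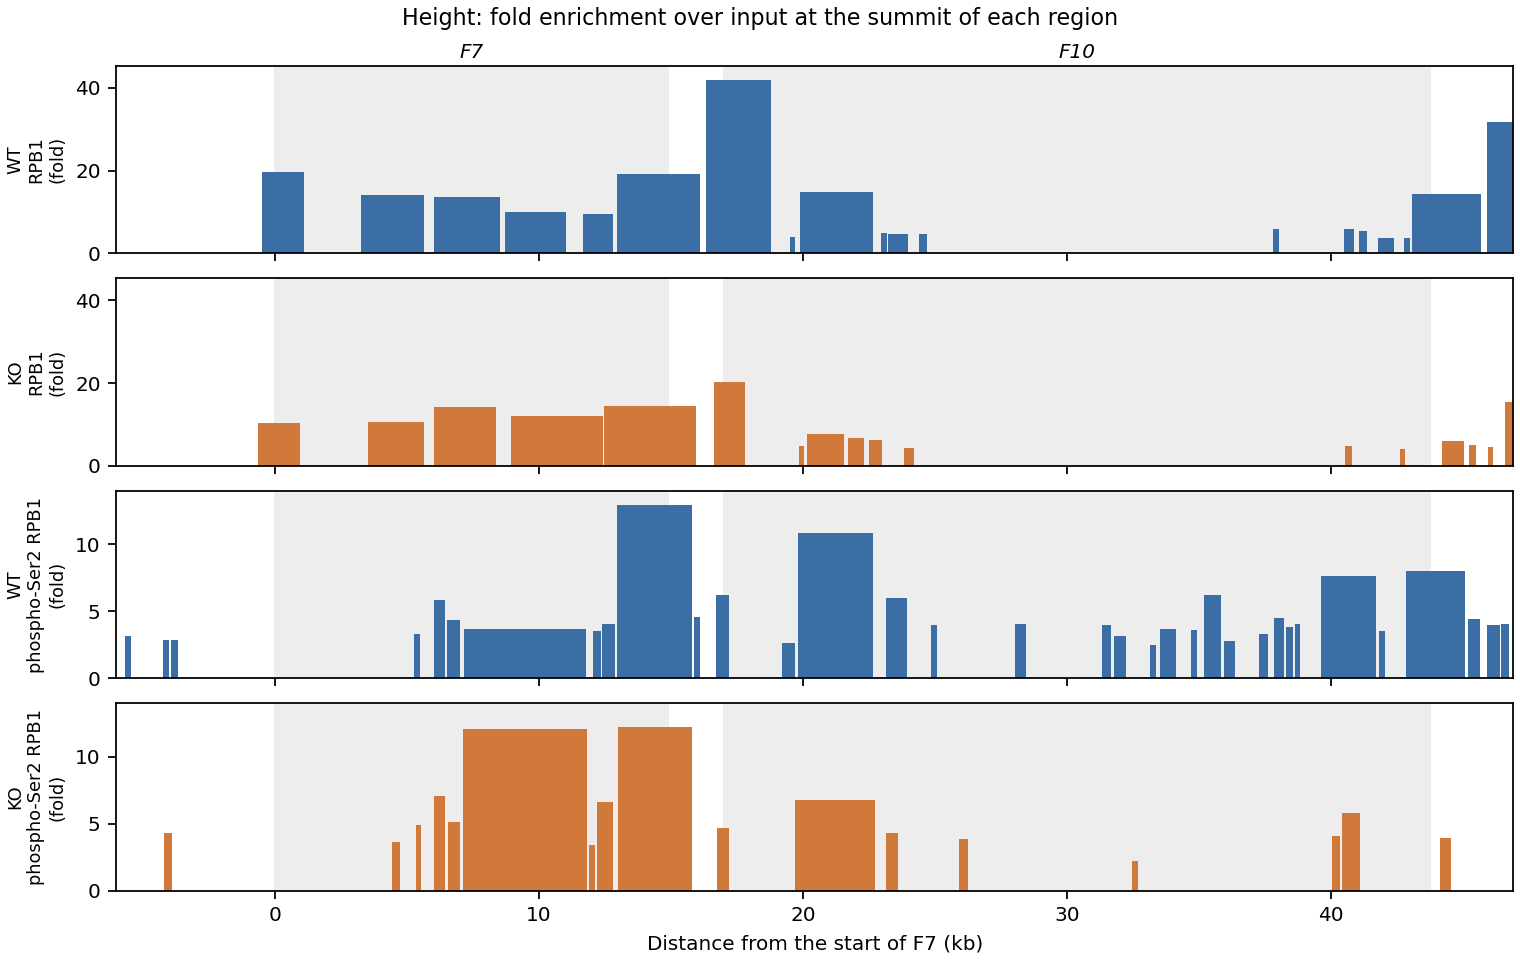
Regions of the 4 lists along F7 and F10, drawn to scale as blocks whose width is the region and whose height is the fold enrichment over input at its summit (y axes, linear, 1 scale for RPB1 and 1 for phospho-Ser2 RPB1), against distance from the start of F7 in kb (x axis), with both genes shaded gray. The block at the start of F10 stands at 42.0 in WT and 20.4 in KO, and the wide phospho-Ser2 block in F7 stands at 3.65 in WT and 12.1 in KO.

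F9 encodes factor IX, whose lack causes hemophilia B. It lies at chrX:139530739-139563459 and held no region in any of the 4 lists, nor did the 10 kb on each side of it. F9 was the only gene of the group without any region, although its promoter held ACTTTG, and CCAAT on the reverse strand, printed above as ATTGG. Without read counts, this says only that no region passed the authors' threshold there.

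F5, the cofactor gene, and F11, the contact factor gene, showed the sparsest phospho-Ser2 coverage in KO relative to WT cells among the genes with a region in both. F5 spans 74531 bp on the reverse strand at chr1:169511951-169586481. Its RPB1 regions were confined to the first 2 kb, with a fold enrichment at the start of 16.8 in WT and 12.8 in KO cells and the summit in exon 1, 31 bp and 24 bp past the start. Phospho-Ser2 RPB1 was spread over the whole gene in WT cells, in 38 regions with fold enrichments from 2.17 to 9.21, a median of 3.39 and a median length of 255 bp. KO cells had 7 regions, with fold enrichments from 2.70 to 5.42. Of these, 6 overlapped a region of WT cells, where 69.9% of all KO phospho-Ser2 regions did. Of the 38 regions in WT cells 5 were overlapped by a region in KO cells, where 52.2% of all WT phospho-Ser2 regions were. The phospho-Ser2 regions covered 16.7% of F5 in WT and 2.09% in KO cells. Most of the WT regions on F5 were weak, since 14 of the 38 had a −log10 q-value of at least 5, against 3 of the 7 in KO cells. The strongest lay at the end of the gene in both groups, with its summit 1279 bp past the end and a fold enrichment of 9.21 in WT cells, and 1483 bp past the end and 5.42 in KO cells. At the start, the weak phospho-Ser2 region of WT cells (2.26) had no counterpart in KO cells, which made F5 the 1 of 5 genes with a phospho-Ser2 promoter region in WT cells that had none in KO cells, as had 24.2% of all promoters with a WT region.

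F11 encodes factor XI and lies at chr4:186266189-186289681 on the forward strand. At its promoter the RPB1 fold enrichment was 16.8 in WT and 10.7 in KO cells, and that of phospho-Ser2 RPB1 was 5.68 and 2.90. F11 was the 1 of 4 genes with a phospho-Ser2 promoter region in both groups at which it was at least 1.5 times lower in KO cells, where 15.3% of all such promoters were. The RPB1 summit lay just before the start, at -179 bp in WT and -167 bp in KO cells. Between KLKB1, the gene of prekallikrein, and F11, WT cells had an RPB1 region at chr4:186260072-186261072 with a fold enrichment of 12.9, and KO cells had a shorter one with 7.45. Inside the gene, WT cells had RPB1 regions in introns 2, 7, 10 and 11, while KO cells had 1, in intron 11, with a fold enrichment of 7.39 against 11.8 in WT cells. Phospho-Ser2 regions numbered 22 in WT and 10 in KO cells and covered 38.4% and 9.51% of the gene. All 10 regions of KO cells overlapped a region of WT cells, where 69.9% of all KO phospho-Ser2 regions did. The strongest lay past the end of F11, with its summit 1295 bp beyond it and a fold enrichment of 8.38 in WT cells and 1719 bp beyond it and 4.92 in KO cells. That stretch is also part of F11-AS1, an antisense RNA gene, and ChIP does not tell the strands apart.

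**Figure D3:**
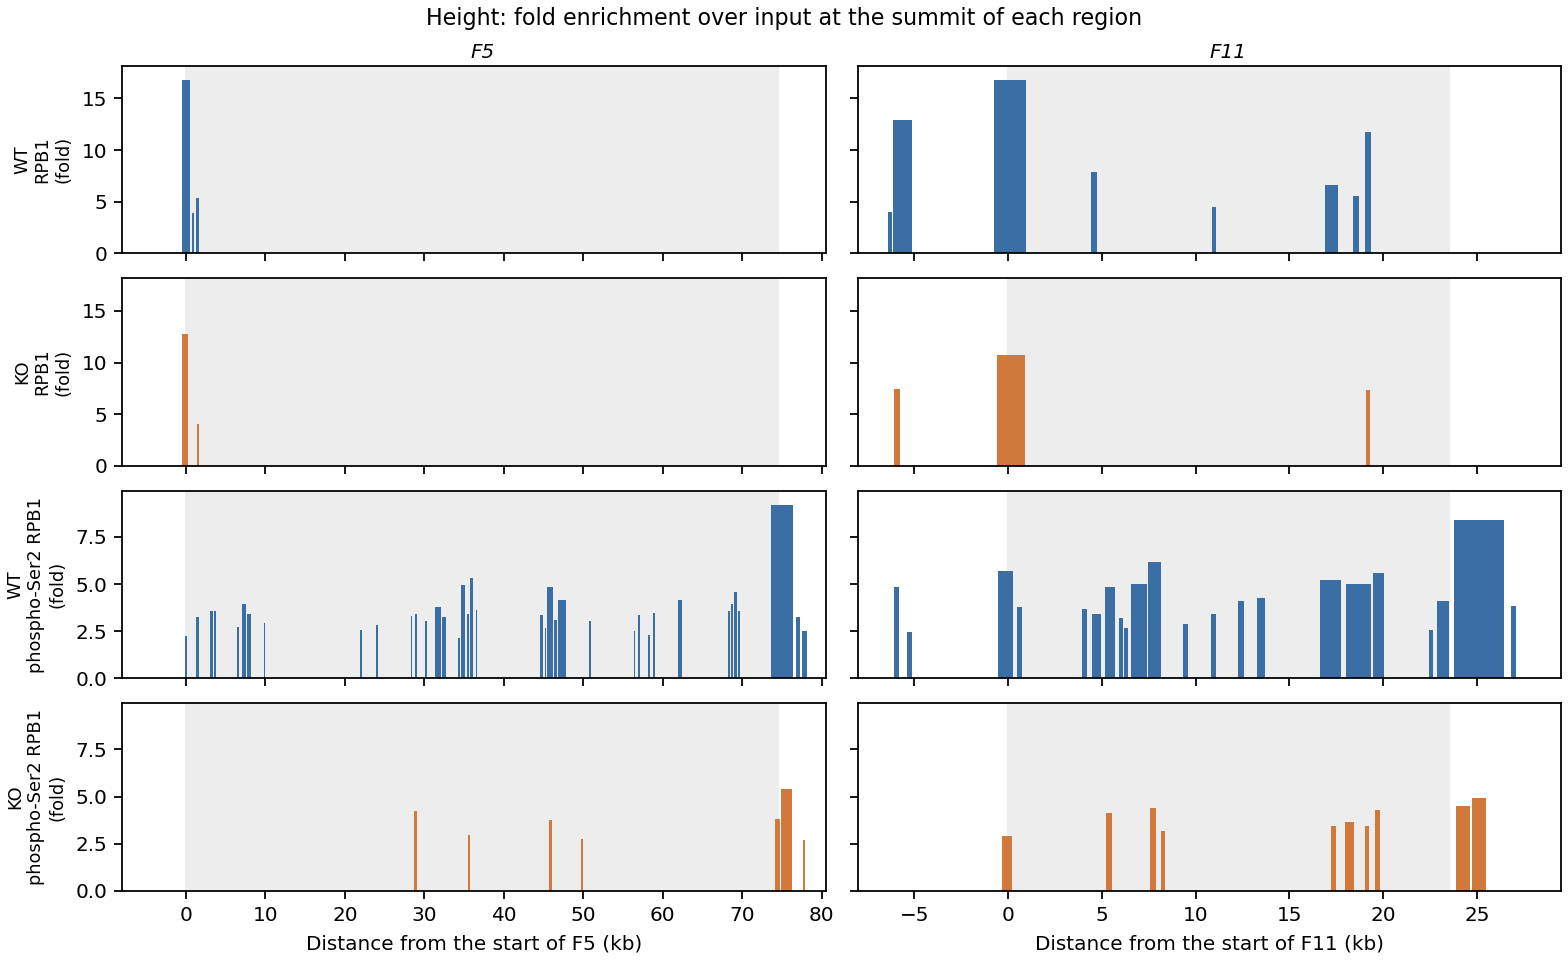
Regions of the 4 lists along F5 (left) and F11 (right), drawn to scale as blocks whose width is the region and whose height is the fold enrichment over input at its summit (y axes, linear), against distance from the start of the gene in kb (x axes), with the gene shaded gray. Phospho-Ser2 RPB1 regions are strung along both genes in WT cells, 38 for F5 and 22 for F11, and number 7 and 10 in KO cells.

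F12 encodes factor XII, which starts the contact pathway, and lies at chr5:177402141-177409564 on the reverse strand. It had RPB1 regions and no phospho-Ser2 region. The 3 regions of WT cells, with fold enrichments of 8.01, 7.51 and 4.51, lay in the 3′ part of the gene, from exon 10 back to intron 6. The 1 region of KO cells, with a fold enrichment of 5.81, had its summit in exon 8. None lay at the start of F12, and the stretch is also part of GRK6, a gene on the forward strand, so that the regions cannot be given to F12 alone.

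PROC encodes protein C and lies at chr2:127418427-127429242 on the forward strand. At its promoter the RPB1 fold enrichment was 29.6 in WT and 15.7 in KO cells, a ratio of 0.532, and that of phospho-Ser2 RPB1 was 3.26 and 2.50. Toward the end of the gene the order was turned around. The region over the last exons and beyond the end, which the authors assigned to MIR4783, had an RPB1 fold enrichment of 10.0 in WT and 12.0 in KO cells. The phospho-Ser2 region there had 10.3 in WT and 13.5 in KO cells, with its summit 248 bp and 418 bp past the end of PROC. RPB1 regions covered 87.5% of the gene in WT and 86.7% in KO cells, and phospho-Ser2 regions 83.9% and 70.6%. About 10 kb upstream, the region whose center is printed above (chr2:127407776-127408909 in WT) had an RPB1 fold enrichment of 19.2 in WT and 15.6 in KO cells. It lay across the start of a long noncoding RNA gene (ENSG00000287742, chr2:127406731-127408221, reverse strand), so its assignment to PROC rests on distance.

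PROS1 encodes protein S and spans 100846 bp on the reverse strand at chr3:93873051-93973896. It had 1 strong RPB1 region, at its start, with a fold enrichment of 24.6 in WT and 12.1 in KO cells, a ratio of 0.492. Phospho-Ser2 RPB1 was found in 2 short regions in WT cells, with fold enrichments of 4.06 past the end and 3.30 in intron 3, and in none in KO cells. A second RPB1 region assigned to PROS1, at chr3:93470272-93470875 in WT, lay far beyond its end, with its summit 503317 bp past the start. It was nearly the same in both groups, with fold enrichments of 3.01 and 3.08 and −log10 q-values of 67.9 and 69.5. It is counted among the 42 and 24 RPB1 regions of the 10 genes and among those shared, although its assignment to PROS1 rests on distance. PLG spans 51854 bp on the forward strand at chr6:160702244-160754097. It had 1 RPB1 region, in intron 1, 2808 bp past the start, with a fold enrichment of 12.5 in WT cells. The authors annotated that region as a promoter, at -105 bp from the start of another PLG transcript. PLG also had 1 phospho-Ser2 region, in intron 16, with a fold enrichment of 3.93 in WT cells. KO cells had neither region.

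**Figure D4:**
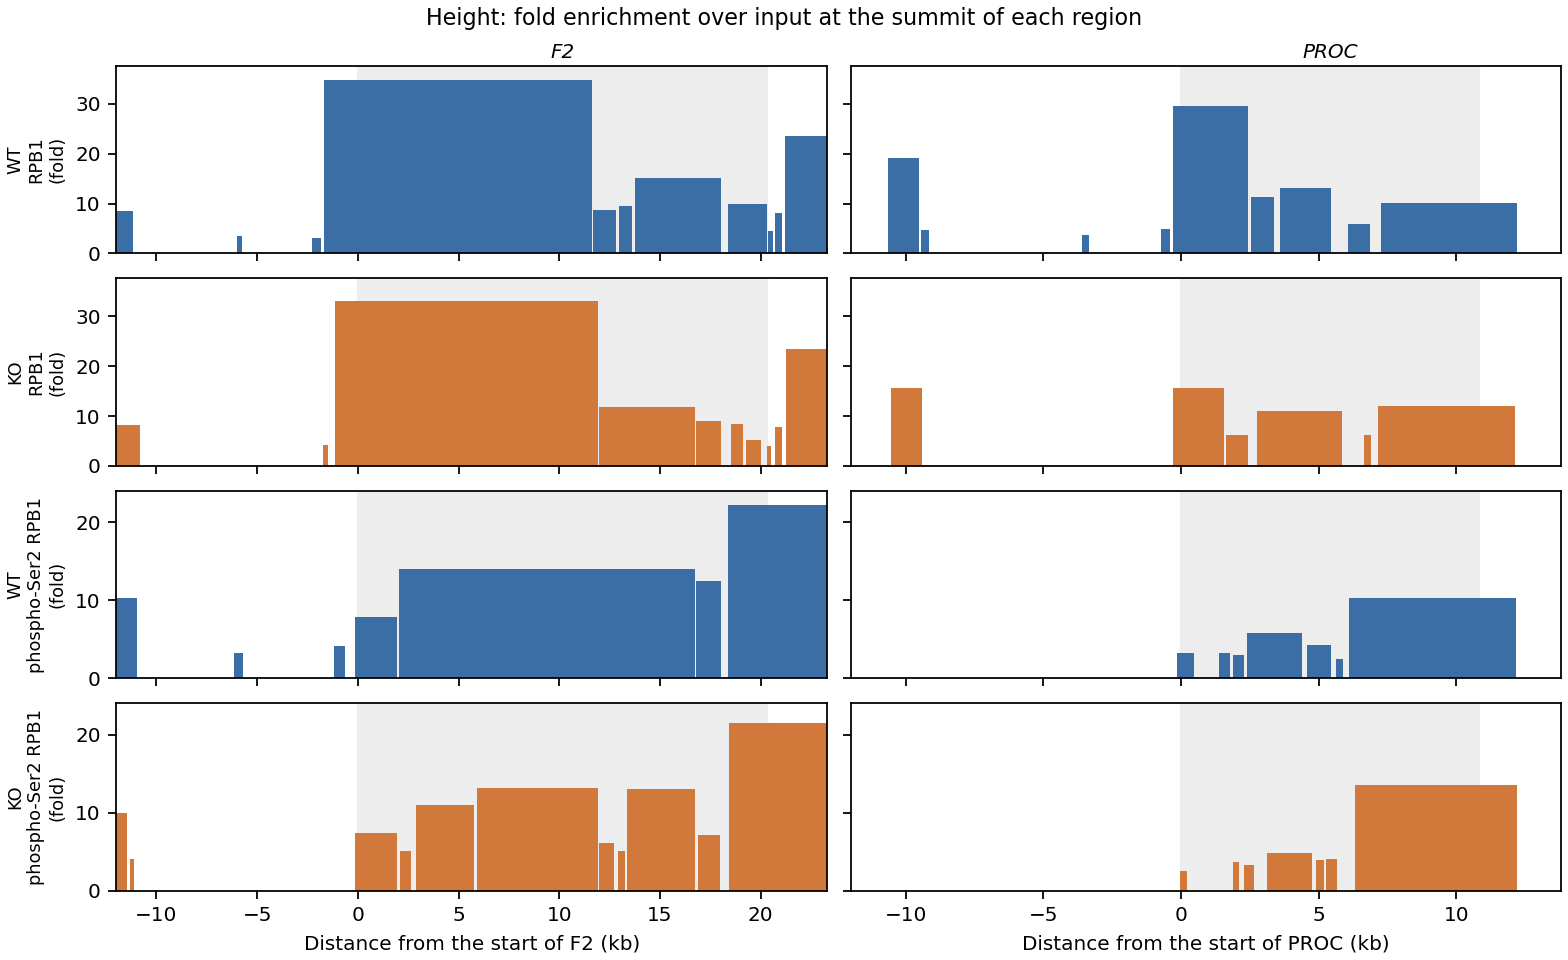
Regions of the 4 lists along F2 (left) and PROC (right), drawn to scale as blocks whose width is the region and whose height is the fold enrichment over input at its summit (y axes, linear), against distance from the start of the gene in kb (x axes), with the gene shaded gray. F2 is covered from end to end in both groups, and at PROC the block at the start stands at 29.6 in WT and 15.7 in KO while the phospho-Ser2 block over the end stands at 10.3 and 13.5.

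Gene by gene, PLG was the 1 of 9 genes with an RPB1 region in WT and none in KO cells, against 8.73% of 14746 genes, and no member showed the opposite, against 3.95%. For phospho-Ser2 RPB1, PROS1 and PLG were the 2 of 8 genes with regions in WT cells alone, against 14.1% of 13303 genes, and again none showed the opposite, against 4.23%. The strongest RPB1 fold enrichment was at least 1.5 times lower in KO cells at 4 of the 8 members in both lists (F10, F11, PROC and PROS1), where 36.1% of 12877 genes were, and at least 1.5 times higher at none, where 2.68% were. That of phospho-Ser2 RPB1 was at least 1.5 times lower at F5 and F11, 2 of 6 members, where 11.7% of 10870 genes were. The bases covered by assigned RPB1 regions were at least 1.5 times fewer at F5, F10, F11 and F12, 4 of 8 members, where 24.1% of genes were, and at least 1.5 times more at none, where 6.02% were. The bases covered by phospho-Ser2 regions were at least 1.5 times fewer at F5, F10 and F11, 3 of 6 members, where 35.6% of genes were, and at least 1.5 times more at none, where 8.03% were. With so few members, these shares are descriptions beside those of all genes.

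In WT cells 42 RPB1 regions lay on a member's canonical transcript, and the authors assigned 11 of them to another gene. These are not the same set as the 42 regions counted by assignment. In KO cells 29 RPB1 regions lay there, and 10 of them were assigned to another gene. Coverage was therefore also taken by place, whatever symbol a region carried. By place, the covered part of the gene was at least 1.5 times smaller in KO cells for RPB1 at F5, F10, F11, F12 and PLG, 5 of 9 members covered in either group, where 27.6% of 12898 protein-coding genes were. For phospho-Ser2 RPB1 it was at F5, F10, F11, PROS1 and PLG, 5 of 8 members, where 41.3% of 10693 genes were. The covered part was at least 1.5 times larger in KO cells at no member for either antibody, where 7.80% of genes were for RPB1 and 10.2% for phospho-Ser2 RPB1.

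**Figure D5:**
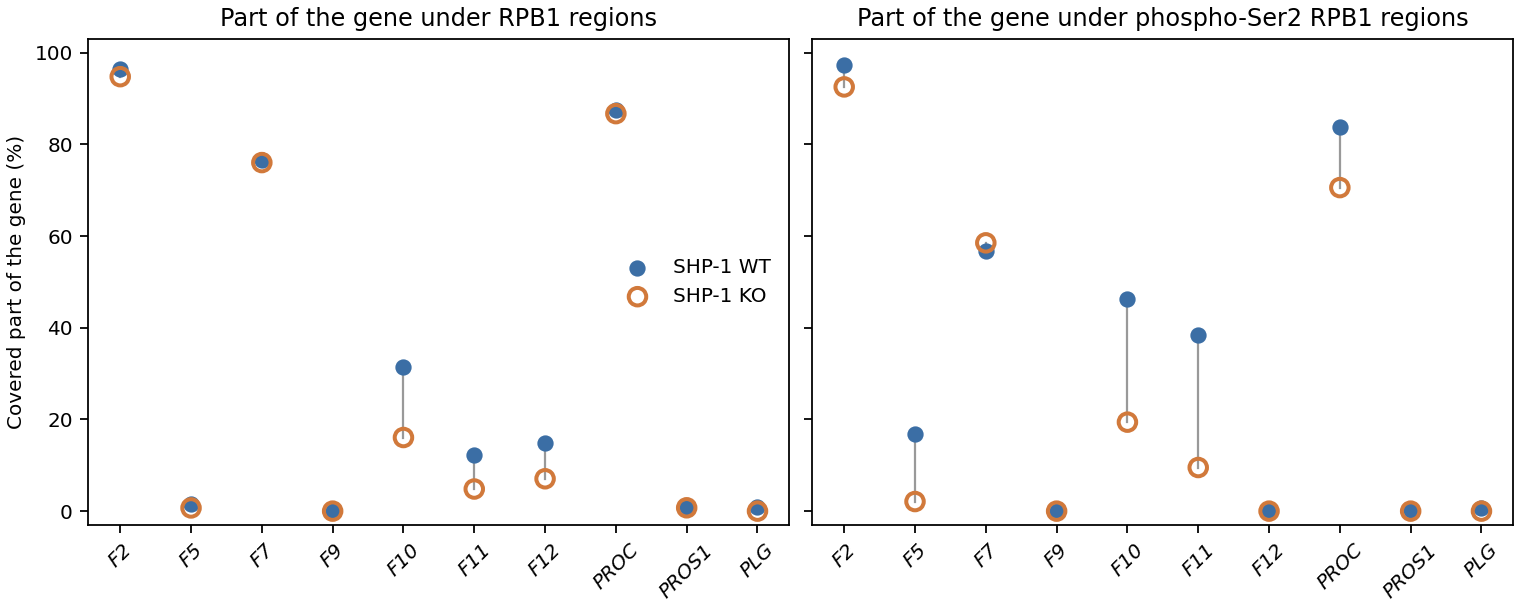
Part of each gene, from start to end of its canonical transcript, that lies under RPB1 regions (left) and phospho-Ser2 RPB1 regions (right), in percent (y axes), with filled blue points for WT, open orange circles for KO and a line between them. F2, F7 and PROC stand above 50% in both groups, and the phospho-Ser2 points of F5, F10 and F11 stand at 16.7%, 46.2% and 38.4% in WT and at 2.09%, 19.4% and 9.51% in KO.

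Over all 10 genes, the KO to WT ratio of the number of regions was 0.571 for RPB1 and 0.443 for phospho-Ser2 RPB1, where all regions gave 0.904 and 0.789. The covered length was 53.0 kb in WT and 43.2 kb in KO cells for RPB1, a ratio of 0.815 where all regions gave 0.841, and 69.3 kb and 39.0 kb for phospho-Ser2 RPB1, a ratio of 0.563 where all regions gave 0.808. The mean fold enrichment of the counted regions was 10.98 in WT and 10.62 in KO cells for RPB1, where all regions gave 12.28 and 10.47. For phospho-Ser2 RPB1 it was 4.21 and 5.26, where all regions gave 4.18 and 4.27. These phospho-Ser2 means of the members are over 97 regions in WT and 43 in KO cells, so they do not compare the same places. A KO region overlapped 27 of the 42 RPB1 regions of WT cells, 64.3% (95% Wilson confidence interval 49.2 to 77.0, counting error only), where 61.9% of all were overlapped. For phospho-Ser2 RPB1 it was 29 of 97, 29.9% (21.7 to 39.6), where 52.2% of all were. In the other direction, all 24 RPB1 regions and 39 of the 43 phospho-Ser2 regions of KO cells were overlapped by a region of WT cells. Of all KO regions, 74.9% were for RPB1 and 69.9% for phospho-Ser2 RPB1. Regions of 1 gene are not independent of each other, and F5 alone gave 38 of the 97.

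Of 25 other genes of coagulation and fibrinolysis, 20 held an RPB1 region in WT and 19 in KO cells, and PLAU, the gene of urokinase, was the 1 with a region in WT cells alone, with a fold enrichment of 6.01. Phospho-Ser2 regions were found at 18 of the 25 in WT and at 16 in KO cells. KLKB1, KNG1 (kininogen) and VKORC1 (the vitamin K epoxide reductase) held them in WT cells alone, and CPB2 in KO cells alone. F13A1, VWF and THBD were the 3 of the 25 that held no region in any list. All 8 hepatocyte markers held an RPB1 region in WT cells, and 7 did in KO cells, where APOA1 had none, against 4.02 in WT cells. For ALB the fold enrichment was 24.4 in WT and 24.1 in KO cells. In WT cells 1 of 5 endothelial, 2 of 5 leukocyte and 1 of 5 stellate cell markers held an RPB1 region, and in KO cells 1 of 5 of each.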

How the data were processed

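Reads were trimmed (Trimmomatic), aligned to GRCh38/hg38 (Burrows-Wheeler aligner) and turned into narrow peaks (MACS2, 1 call per library with the matching input) by the authors. Versions are not given in the sources used here. Each deposited list gives a region's fold enrichment at its summit, a ratio to input. The deposited lists also hold p-values and q-values on the −log10 scale, and a score that follows the q-value and was not used. The nearest gene of each region is the authors' annotation. A further deposited table holds only the authors' own csaw comparison of the 2 groups for RPB1 and was not used. The 2 input libraries were not analysed here.

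All 10 genes were named whatever their values, together with the 25 other coagulation genes where 1 group alone held a region, the markers, and genes next to a member, which their place chose. KNG1, VKORC1, CPB2, F13A1, VWF, THBD, ALB and APOA1 were named after their values were seen. The members and lists were chosen with earlier results of these data known. Regions were counted as listed. Overlap required 1 bp. Genes were ranked in each list by their strongest region. Canonical transcripts came from GENCODE release 44 and promoters from RefSeq (all 10 genes matched). Calls required a 1.5-fold difference. The overlap and coverage functions were tested on simulated data. Depth is unknown, because the lists hold no counts of reads. Python 3.11.15, pandas 2.3.3, NumPy 2.4.6, SciPy 1.17.1 and Matplotlib 3.10.9 were used. No test was run between groups of 1 library. Coverage by place and leaving out each gene in turn were chosen after the data had been seen. Groupings of the genes by their number of regions or their coverage in WT cells were also tried and are not reported, because they select on the WT values.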

Additional observations from a re-analysis of the deposited data

How the results depend on the processing

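No paired analysis was possible because each antibody was used in 1 library per group. With only regions of −log10 q of at least 5, the phospho-Ser2 regions counted in WT cells were 46 in place of 97, while those in KO cells were 29 in place of 43. With 10 kb added on each side of the genes in place of the authors' assignment, the RPB1 regions in KO cells were 42 in place of 24, and those in WT cells 59 in place of 42, since neighbours such as PROZ and CKAP5 were then counted. With a reciprocal overlap of 50%, the share of WT regions overlapped in KO cells was 38.1% for RPB1 and 17.5% for phospho-Ser2 RPB1. By place, the members with phospho-Ser2 coverage at least 1.5 times lower were 5 in place of 3. The median percentile of the members' strongest region among genes was 43.7 and 39.5 for RPB1 and 67.3 and 71.0 for phospho-Ser2 RPB1 in WT and KO cells, and among all regions it was 81.3, 78.5, 93.4 and 92.3. Ranked by −log10 q, that of RPB1 in KO cells was 52.7. The other 39 values stayed within the limits set for a change. The phospho-Ser2 ratio of covered bases, 0.563, was 0.436 without F2 and 0.661 without F5. Fold enrichments are relative to each library's own input, and weak regions near the threshold, most of those on F5, are limited by a depth that is not known.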
